A study of Rattus norvegicus with 4 samples.

Results

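Lymphoid homing genes encode the adhesion ligands, chemokines, receptors and lymphotoxins that bring lymphocytes into lymphoid tissue and keep that tissue organised. The set holds 9 genes: Glycam1, Madcam1, Ccl19, Ccl21, Cxcl13, Ccr7, Cxcr5, Lta and Ltb. They were found by gene symbol among 26541 gene names on the array, with 1 probe of 1 spot for each gene. The genes were chosen by their own ratios of FeD and FeO over FeA in these arrays, so those ratios were known beforehand. The values are therefore a description, with no test.

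RNA came from the pancreas of weanling male Sprague-Dawley rats fed purified diets for 3 weeks. The iron-deficient diet (FeD) held 5 ppm iron, the iron-adequate diet (FeA) 35 ppm by the labels, and the iron-overloaded diet (FeO) 20275 ppm, with carbonyl iron as the added source. RNA of 6 rats was combined into 1 pool for each diet, so the spread among rats is unknown. Each comparison, FeD against FeA and FeO against FeA, used 2 Agilent rat arrays, with the Cy3 and Cy5 dyes exchanged on array 2. Both comparisons share the FeA pool. By the file headers the 4 arrays come from 1 scan. The median spot signal per channel was 115 to 222.5 intensity units over a local background of 50 to 87, and 61.9% to 71.5% of 42877 gene spots were well above background. The number of arrays limits the precision.

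In a lymph node, naive lymphocytes leave the blood through high endothelial venules, whose surface carries adhesion ligands for them. Stromal cells there release Ccl19 and Ccl21, which draw Ccr7-bearing T cells and dendritic cells, and Cxcl13, which draws Cxcr5-bearing B cells into follicles. Lymphotoxin from lymphocytes signals to the stroma and sustains this production. The pancreas itself is mostly acinar tissue, with lymph nodes lying against it.

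Acinar markers were well above background in the pools, as the tissue label requires. All 11 acinar genes on the array had a usable ratio in FeD against FeA, and 7 of 11 in FeO against FeA, where Prss1, Cpa1, Cela2a and Clps had an outlier spot on an array. Some of these probes were saturated in a channel, 8 genes in the FeD comparison and 7 in the FeO comparison. All 8 islet genes passed in both comparisons.

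Glycam1 had opposite directions in the 2 diets relative to FeA. Glycam1 encodes a secreted, mucin-like adhesion ligand made by high endothelial venules, and also a milk protein of the mammary gland. On a normalized log2 intensity scale, its level was 11.92 and 11.50 in FeD, 10.48, 10.65, 10.24 and 10.72 in the FeA channels of the 4 arrays, and 7.58 and 7.87 in FeO. The FeD channels lay above every FeA channel and the FeO channels below every one. How often channels separate in this way over all probes was not counted. Nothing is therefore read from such separation, here or for the genes below. The raw spot signal of the FeO pool was 316 over a local background of 93 on array 1, and 187 over 54 on array 2. It was well above background in every channel and saturated in none.

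The log2 ratio of Glycam1 was 1.44 and 0.85 in FeD over FeA, with a mean of 1.15 and a fold of 2.21. In FeO over FeA it was -2.65 and -2.85, with a mean of -2.75, a 6.75-fold lower level. The arrays of a comparison differed by 0.59 in FeD and 0.20 in FeO, where the median gap over all probes was 0.23 in both. By its mean ratio the probe stood at place 11 from the lowest among 18315 probes in FeO, and at place 13 from the highest among 17513 in FeD. In this whole-tissue RNA, fewer cells of a type and less RNA per cell cannot be told apart.

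**Figure D1:**
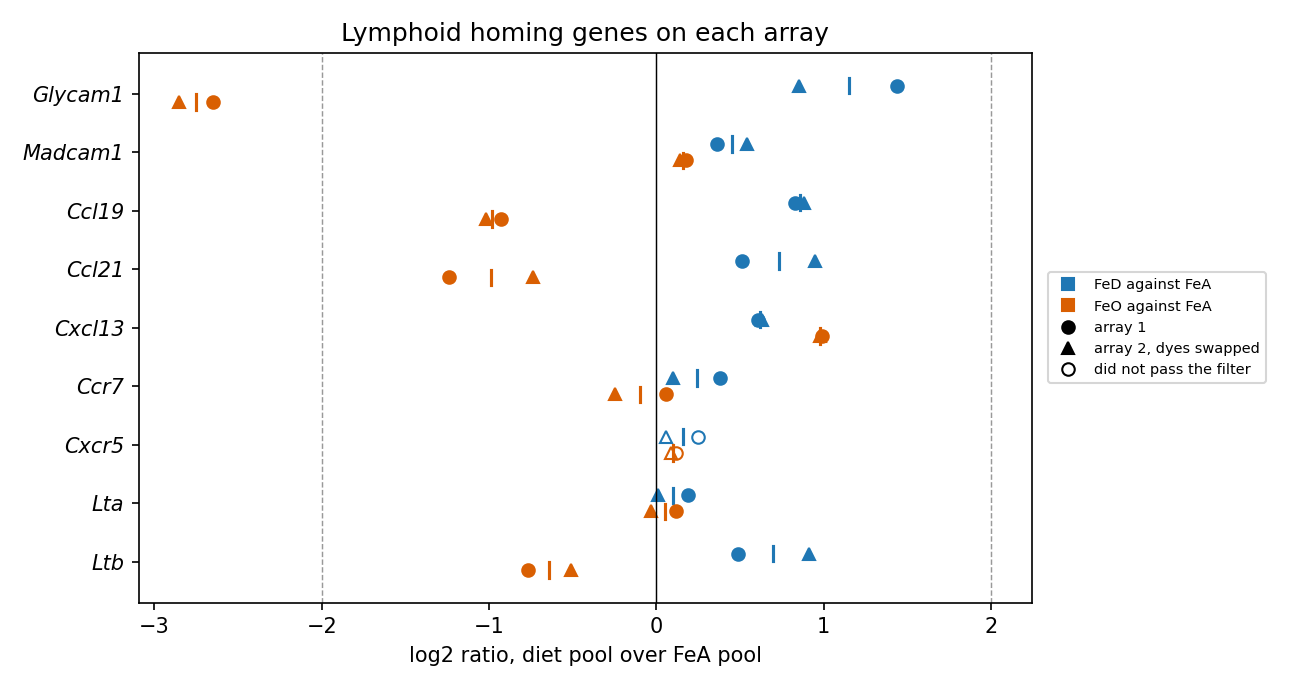
Log2 ratio of the diet pool over the FeA pool (x axis) for each homing gene (y axis), with 1 point per array, circles for array 1, triangles for the dye-swapped array 2 and short bars for the mean. Glycam1 lies at 1.44 and 0.85 in FeD and at -2.65 and -2.85 in FeO, while Cxcl13 lies above 0 on all 4 arrays; dashed lines mark log2 ratios of -2 and 2, and open symbols the Cxcr5 probe, which did not pass the filter on dim probes.

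Madcam1 encodes the endothelial ligand of integrin alpha4beta7, used by lymphocytes that home to the gut. Its level was 8.35 and 8.40 in FeD, from 7.77 to 7.99 in the FeA channels, and 8.16 and 7.91 in FeO. FeD lay above the FeA channels, whereas FeO overlapped them. The log2 ratio against FeA was 0.36 and 0.54 for FeD, mean 0.45, and for FeO it was 0.18 and 0.14, mean 0.16.

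Ccl19 and Ccl21, ligands of Ccr7, had the same order of pools as Glycam1, with smaller mean ratios. The Ccl19 level was 10.72 and 10.45 in FeD, from 9.57 to 9.89 in the FeA channels, and 8.81 and 8.54 in FeO. The Ccl21 level was 11.65 and 12.06 in FeD, from 11.08 to 11.24 in the FeA channels, and 10 and 10.34 in FeO. For both genes the channels of the 3 pools did not overlap, though channels of a pool are technical repeats and the share of all probes was not counted. The log2 ratio of Ccl19 was 0.83 and 0.88 in FeD (mean 0.86, 1.81-fold) and -0.93 and -1.02 in FeO (mean -0.98, 1.97-fold lower). That of Ccl21 was 0.51 and 0.95 in FeD (mean 0.73, 1.66-fold) and -1.24 and -0.74 in FeO (mean -0.99, 1.98-fold lower). The authors' tables list the Ccl21 probe under the synonym Ccl21b.

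Cxcl13, the ligand of Cxcr5, was higher than FeA in both diets. Its level was 8.96 and 8.94 in FeD, from 8.29 to 8.41 in the FeA channels, and 9.40 and 9.27 in FeO. The channels of the 3 pools did not overlap, and FeO was the brightest. The log2 ratio was 0.61 and 0.63 in FeD (mean 0.62, 1.54-fold) and 0.99 and 0.98 in FeO (mean 0.98, 1.98-fold). In FeO its ratio thus had the opposite sign to those of Ccl19 and Ccl21.

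**Figure D2:**
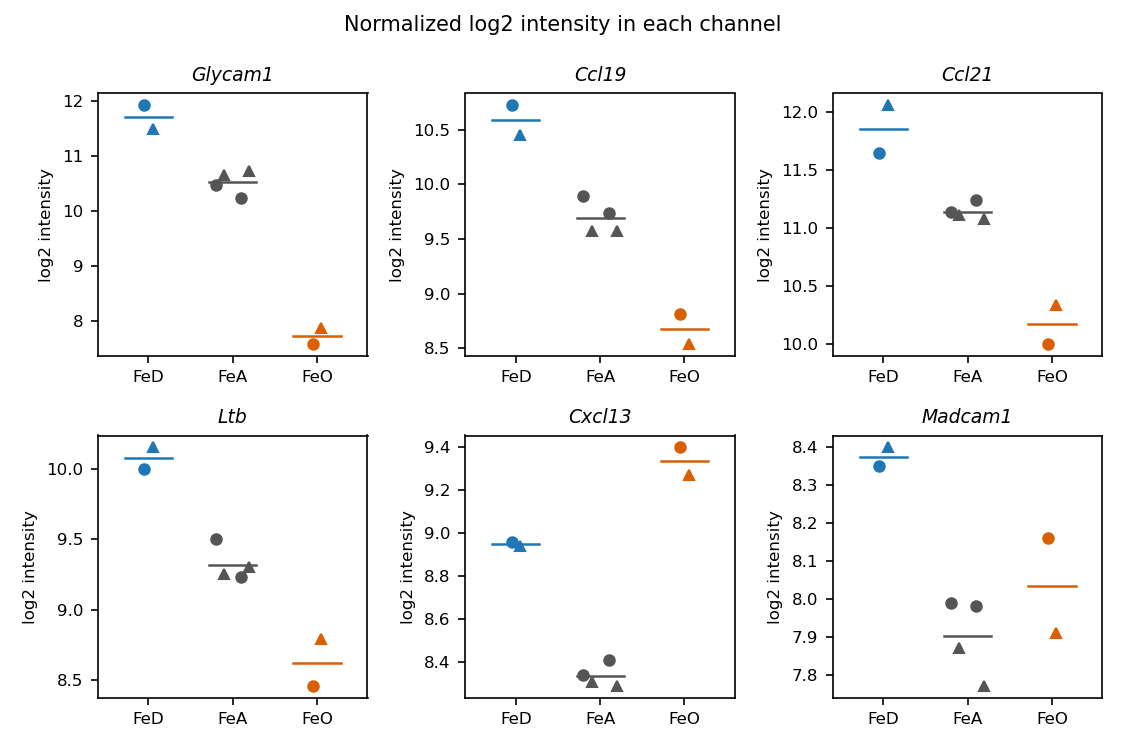
Normalized log2 intensity (y axis, a separate scale for each gene) of 6 homing genes in the FeD, FeA and FeO pools, with 1 point per channel, circles for array 1, triangles for array 2 and bars for the mean. Glycam1, Ccl19, Ccl21 and Ltb descend from FeD to FeA to FeO, Cxcl13 is lowest in FeA, and the FeO channels of Madcam1 overlap those of FeA.

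Ccr7, the receptor of Ccl19 and Ccl21, had FeD channels of 8.07 and 7.70, above all FeA channels. Its log2 ratio was 0.38 and 0.10 for FeD, mean 0.24, whereas for FeO the arrays gave opposite signs, 0.06 and -0.25. Its FeO channels, 7.29 and 7.25, lay among the FeA channels, which ran from 7.23 to 7.68. Cxcr5, the receptor of Cxcl13, exceeded background clearly on only 1 of 2 FeD arrays and in no channel of FeA or FeO, so the filter on dim probes removed it. No fold is given for it in either diet.

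Ltb and Lta encode the chains of lymphotoxin, with Lta also secreted alone. Ltb had a level of 10 and 10.15 in FeD, from 9.23 to 9.50 in the FeA channels, and 8.46 and 8.79 in FeO, again with no overlap among pools. Its log2 ratio was 0.49 and 0.91 in FeD (mean 0.70, 1.62-fold) and -0.77 and -0.51 in FeO (mean -0.64, 1.56-fold lower). Lta lay close to FeA, at 7.27 and 7.14 in FeD, from 6.89 to 7.13 in the FeA channels, and 7.01 and 6.89 in FeO. Its log2 ratio was 0.19 and 0.01 for FeD, and for FeO it was 0.12 and -0.03. In the RefSeq table Tnf lies between Lta and Ltb, and Tnf had mean log2 ratios of 0.17 in FeD and 0.03 in FeO.

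Of the 9 genes, 8 passed the filter in each comparison, that is, were well above background on both arrays in at least 1 pool. In FeD against FeA, 8 of 8 had a positive ratio on both arrays, where 24.8% of all 17513 probes did. Glycam1 alone reached a log2 ratio of 1, which 0.12% of probes reached, and had 0.85 with array 1 left out. A ratio of 2 was reached by 0 homing genes, against 0.0171% of probes. In FeO against FeA, 4 of 8 had a negative ratio on both arrays (24.0% of all 18315 probes) and 2 of 8, Madcam1 and Cxcl13, a positive ratio on both (27.8%). A log2 ratio of -1 or less was found for 1 of 8, Glycam1 (0.497% of probes), which also passed -2 (0.137%). Ccl19 at -0.98 and Ccl21 at -0.99 lay just short of it, and both passed -1 with an offset of 0 or the processed signals, as did Ccl19 without array 1 and Ccl21 without array 2. Of the homing genes, 0 were lower on both arrays in FeD (21.5% of probes), 0 had -1 or less there (0.246%) and 0 had 1 or more in FeO (0.622%). Cxcl13, at 0.98, passed 1 with an offset of 0, the processed signals or median centring. By gene, 0.108% of 15748 genes in FeD and 0.195% of 16448 in FeO passed a log2 ratio of 2 in size in either direction. Since the ratios selected the genes, nothing is read from these shares.

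Promoter sequence is shown for the 4 genes with the order FeD, FeA, FeO and for Cxcl13, which differed from them in FeO. RefSeq promoters (build GRCr8) matched 7 of the 9 genes; Ccr7 and Cxcr5 were not matched. Each run holds the 250 bases before the transcription start, 5' to 3' on the gene's strand, with motif matches in capitals. Glycam1 lies at chr7:136561300-136561549 (minus strand), Ccl19 at chr5:61761165-61761414 (minus strand), Ccl21 at chr5:61777516-61777765 (minus strand), Ltb at chr20:3634055-3634304 (minus strand) and Cxcl13 at chr14:13917921-13918170 (minus strand).
Glycam1: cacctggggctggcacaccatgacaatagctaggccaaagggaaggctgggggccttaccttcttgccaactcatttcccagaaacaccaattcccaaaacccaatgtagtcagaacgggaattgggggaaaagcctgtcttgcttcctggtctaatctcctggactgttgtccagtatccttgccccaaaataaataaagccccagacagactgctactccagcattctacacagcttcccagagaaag
Ccl19: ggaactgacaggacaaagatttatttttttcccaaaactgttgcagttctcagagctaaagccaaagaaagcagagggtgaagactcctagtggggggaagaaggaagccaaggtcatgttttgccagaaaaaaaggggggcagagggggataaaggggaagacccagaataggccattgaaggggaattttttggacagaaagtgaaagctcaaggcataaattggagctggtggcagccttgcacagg
Ccl21: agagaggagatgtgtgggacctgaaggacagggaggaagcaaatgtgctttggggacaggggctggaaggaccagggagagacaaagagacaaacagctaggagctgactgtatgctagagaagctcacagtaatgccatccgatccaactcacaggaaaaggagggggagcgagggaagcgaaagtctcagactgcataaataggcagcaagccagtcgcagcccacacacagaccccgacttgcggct
Ltb: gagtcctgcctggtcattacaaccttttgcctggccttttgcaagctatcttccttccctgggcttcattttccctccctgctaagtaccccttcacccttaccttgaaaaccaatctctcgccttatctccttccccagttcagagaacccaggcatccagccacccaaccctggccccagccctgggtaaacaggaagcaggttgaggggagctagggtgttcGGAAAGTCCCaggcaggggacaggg
Cxcl13: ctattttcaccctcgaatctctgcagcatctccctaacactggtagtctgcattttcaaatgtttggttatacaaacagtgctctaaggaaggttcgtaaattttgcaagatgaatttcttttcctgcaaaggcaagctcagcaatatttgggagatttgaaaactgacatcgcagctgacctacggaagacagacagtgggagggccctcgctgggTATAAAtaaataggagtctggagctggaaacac

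The motifs searched on both strands were a form of the NF-kB site, which is GGG, any 3 bases and then TTCC, and the TATA box TATAAA. The first was in 4.53% and the second in 12.9% of 33469 promoters of this length. Ltb held 1 match of the first, starting 25 bases before the transcription start on the minus strand of the printed run, and Lta and Madcam1, not printed, also held 1 each. A TATA box match began 33 bases before the start in Cxcl13 and 27 bases before it in Lta. Glycam1, Ccl19 and Ccl21 held neither set of letters in this window. A match describes the letters and not binding. Ccl19 and Ccl21 are close neighbours on chromosome 5.

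The genes whose ratios were nearest to Glycam1 were found among 14574 other genes well above background in FeA on all 4 arrays, by the root mean square difference over the 4 array ratios. The nearest was Mmp7, a matrix metalloproteinase, at 0.47, with FeD ratios of 1.23 and 0.83 and FeO ratios of -2.11 and -2.11. Next came Fam25a at 0.92, with mean ratios of 1.29 in FeD and -1.48 in FeO. Among the 10 nearest were also the T cell receptor component Cd3g (0.88 and -1.18), the leukocyte actin regulator Coro1a (0.95 and -1.12) and the chemokine receptor Ccr6 (0.61 and -1.15), each as mean ratios in FeD and in FeO. The metallothionein gene Mt1 (-0.26 and -2.05), Prss3 (-0.54 and -2.27) and an unnamed transcript (-0.36 and -2.64) were near by their FeO ratios and had the opposite sign to Glycam1 in FeD. A further unnamed transcript (0.90 and -1.12) was also among them, and 1 of the 10 is not described. Of the homing genes, Ccl19 was at place 11, Ccl21 at 19 and Ltb at 53. Farther off were Ccr7 at 1572, Lta at 6646, Madcam1 at 7578 and Cxcl13 at 14422.

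**Figure D3:**
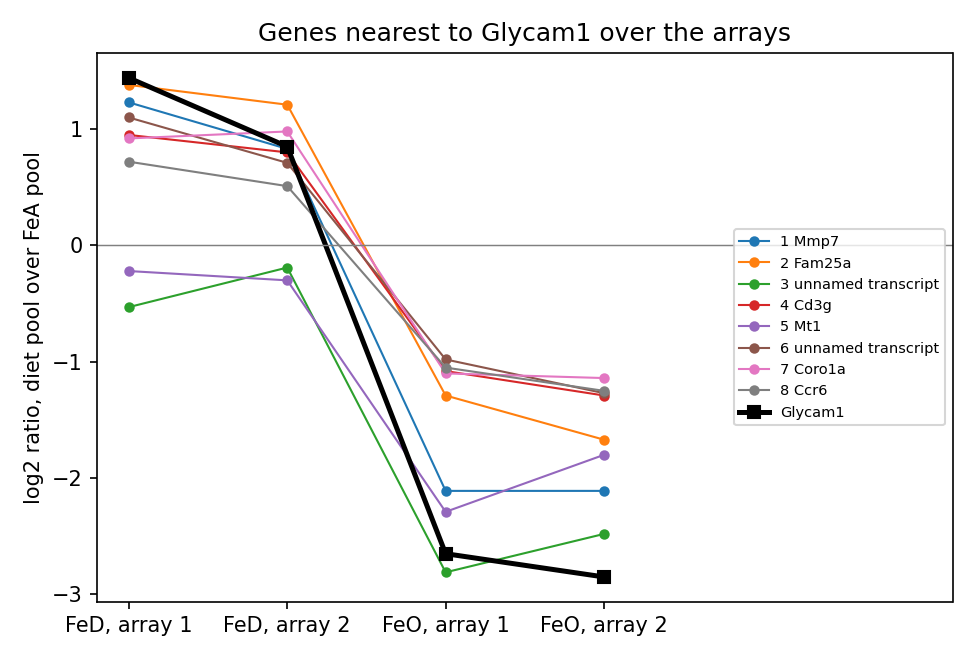
Log2 ratio of the diet pool over the FeA pool (y axis) on each of the 4 arrays (x axis) for Glycam1 (thick black line) and the 8 genes nearest to it. Mmp7 follows at 1.23, 0.83, -2.11 and -2.11, while Mt1 and an unnamed transcript lie below 0 on all 4 arrays.

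B and T cell markers that passed the filter were, for the most part, higher in FeD and lower in FeO, as were Glycam1, Ccl19, Ccl21 and Ltb. Of 11 B cell genes on the array, 11 passed the filter in FeD against FeA, 6 of them also through FeA. All 11 were higher on both arrays, and so the 6 as well, against 24.8% of all probes. Ms4a1, Cd22, Cr2, Fcer2 and Cd37 passed through FeD alone, which favours a higher ratio. The median log2 ratio of the B cell genes was 0.43, or 0.97 with the processed signals, and that of all probes was 0.01. In FeO against FeA, 7 passed, 5 were lower and 1 higher on both arrays (24.0% and 27.8% of all probes), and the median was -0.39 (0.02 for all probes), or -0.12 over all 11. Without array 1 it was -0.22. The antigen receptor component Cd79b had mean ratios of 0.96 in FeD and -0.97 in FeO, the lowest in FeO. The lowest ratio in FeD was that of Pax5 (0.20) and the highest that of Cd74 (1.00), which gave 0.42 on array 1 and 1.58 on array 2, where Cd79b gave 0.67 and 1.25. In FeO Pax5 was highest (0.15). The summed B cell signal was 8060 in FeD against 5920 in FeA on array 1 and 10300 against 4650 on array 2, and 3300 in FeO against 5480 and 4100 against 4550. Cd74 had the brightest probe, with a mean log2 signal of 11.59, and Pax5 was next at 9.15, so the sum mostly follows Cd74. Ms4a1, Cd22, Fcer2 and Cd37 did not pass the filter in FeO against FeA.

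Of 14 T cell genes, 12 passed in FeD against FeA, 11 of them also through FeA, with 11 higher and 0 lower on both arrays (24.8% and 21.5% of all probes) and a median of 0.48. In FeO against FeA, 11 passed, with 0 higher and 9 lower (27.8% and 24.0% of all probes) and a median of -0.40. Over all 14 genes the medians were 0.43 and -0.31. Cd3g had the highest mean ratio in FeD (0.88) and the lowest in FeO (-1.18), and Cd4 the lowest in FeD (0.12) and the highest in FeO (0.09). Cd4 gave opposite signs on the 2 arrays of each comparison, -0.11 and 0.35 in FeD and -0.24 and 0.41 in FeO. The summed signal was 4630 and 4330 in FeD against 3060 and 3010 in FeA, and 2150 and 2340 in FeO against 3060 and 3240. Cd3d was brightest, and Cd28 and Trat1 were dim in both comparisons. The part of lymphocytes in the homing gene ratios was not tested.

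Of 15 homing receptor genes of lymphocytes, 12 passed in each comparison. In FeD 11 of 12 were higher and 0 lower on both arrays, against 24.8% and 21.5% of all probes. In FeO 2 of 12 were higher and 5 lower, against 27.8% and 24.0% of all probes. The medians were 0.43 in FeD and -0.21 in FeO, or 0.29 and -0.05 over all 15 genes. The FeO median was -0.14 without array 1 and -0.08 without array 2. By mean ratio Cxcr4 was highest in FeD (0.80, from 0.52 and 1.08) and Cd44 lowest (0.02, from 0.19 and -0.16). On array 1 Itgb2 (0.83) was above Cxcr4, and Selplg (0.05) was below Cd44. Ccr6 was lowest in FeO, with -1.05 and -1.25, and Itgb1 highest (0.25).

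Endothelial genes were listed apart. Of 18 genes of selectin ligand synthesis and high endothelial venules, 14 passed in FeD, with 8 higher and 2 lower on both arrays (median 0.12, or 0.19 without array 2). In FeO 15 passed, with 9 higher and 2 lower (median 0.19). Of all probes, 24.8% were higher and 21.5% lower in FeD, and 27.8% higher and 24.0% lower in FeO. By mean ratio Enpp2, which makes lysophosphatidic acid at these venules, was highest in both (0.54 and 0.79), and Fut4 was lowest in both (-0.61 and -0.45). Fut4 gave -0.7 and -0.2 on the FeO arrays, and on array 2 Cd34 was lower (-0.46). The sulfotransferase genes Chst4 and Chst2, which modify Glycam1, did not pass the filter. Of 8 lymphatic endothelial genes, 5 passed in FeD (median 0.10, or 0.20 without array 2 and -0.00 without array 1, from -0.33 for Vegfc to 0.39 for Lyve1) and 6 in FeO (median 0.11, from -0.59 for Vegfc to 1.06 for Pdpn, whose other probe gave 0.31), and Prox1 was dim in both. The FeO median was 0.18 without array 2 and 0.01 over all 8 genes. Vegfc gave -0.09 and -0.58 in FeD, and -0.29 and -0.9 in FeO.

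In the lymphotoxin and TNF pathway, 15 of 21 genes passed in each comparison. On the FeD arrays 13 of them also passed through FeA, and on the FeO arrays 14. Il7r, counted as higher in FeD at 0.01 and 0.27, passed through the FeD pool alone. In FeD 7 were higher and 3 lower on both arrays (24.8% and 21.5% of all probes), with a median of 0.15, or 0.29 without array 1 and -0.03 without array 2, from Id2 (-0.37) to Tnfrsf14 (0.44). In FeO 4 were higher and 5 lower (27.8% and 24.0% of all probes), with a median of 0.03. It was -0.07 without array 2 and -0.08 with the processed signals. Tnfrsf14 was lowest there (-0.72), and Tnfsf13b, whose FeA pool was not well above background, was at least 1.15-fold above FeA. Such bounds use channel values after loess and Aquantile normalization, with the dim pool set no lower than the dimmest signal well above background. The lymphotoxin receptor gene Ltbr had mean ratios of -0.25 and -0.18. Of 9 other homeostatic chemokine and scavenger receptor genes, 6 passed. Their medians were 0.12 in FeD, where leaving out array 1 gave -0.01, and 0.38 in FeO, or -0.04 in FeO over all 9. By its brightest probe Cxcl12 was highest in FeD (0.65), where its other probe gave -0.01 and Ccl27 was lowest (0.01), and the Cxcl12 probes gave 0.84 and -0.21 in FeO. In FeO Cxcl14 was highest, with 1.60 and 0.75, and Ccl17 lowest (-0.43), with that pool well above background on 1 of 2 arrays.

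**Figure D4:**
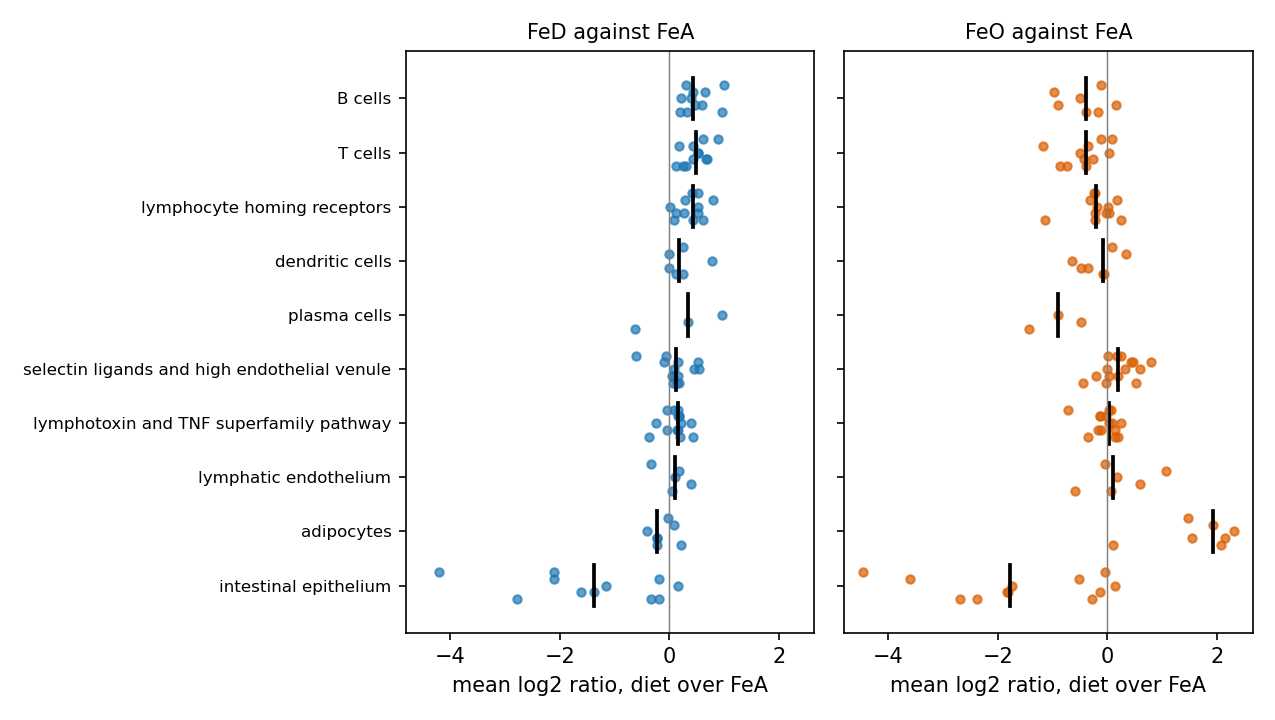
Mean log2 ratio of the diet pool over the FeA pool (x axis) of each gene that passed the filter, by gene list (y axis), for FeD on the left and FeO on the right, with bars for list medians. The FeD and FeO medians are 0.43 and -0.39 for B cell genes, 0.48 and -0.40 for T cell genes, -0.22 and 1.92 for adipocyte genes, and -1.38 and -1.78 for intestinal genes.

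Other cell types and tissues were looked at in the same way. Of 8 dendritic cell genes, 6 passed in FeD (median 0.18, or 0.10 without array 2, from -0.00 for Ccl5 to 0.77 for Cd83) and 7 in FeO (median -0.09, from -0.64 for Cd83 to 0.33 for Flt3). Of 6 plasma cell genes, 3 passed in each comparison, with medians of 0.34 in FeD, where leaving out array 2 gave -0.04, and -0.91 in FeO. Over all 6 genes the medians were 0.12 and -0.3, and with the processed signals the FeO median was -1.52. By its brightest probe Pou2af1 was highest in FeD (0.97), where a dimmer probe gave 0.26. Mzb1, whose FeO pool was not well above background, was at least 1.35-fold lower there than in FeA. Derl3, which acinar cells may also express, had -0.63 in FeD and -1.44 in FeO. In FeO these Pou2af1 probes gave -0.91 and -0.10, and its remaining probe did not pass the filter.

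Of 6 milk protein genes, 1 passed in each comparison, Csn1s1, with mean ratios of 0.20 and -0.06. Csn1s2a, Csn2, Csn3, Wap and Lalba were not well above background in either comparison.

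Of 12 intestinal epithelial genes, 11 passed in FeD and 12 in FeO, with 9 lower on both arrays in each, against 21.5% of all probes in FeD and 24.0% in FeO. A log2 ratio of -1 or less was found for 7 in each, against 0.246% of all probes in FeD and 0.497% in FeO. Fabp1 had -4.68 and -3.74 for FeD, a pool well above background on 1 of 2 arrays, and a FeO level lower by at least 21.8-fold. Cdx1 was highest (0.16 and 0.13). For Fabp2 the FeD level was lower by at least 6.77-fold and the FeO level by at least 6.32-fold. For Cdh17 the FeD pool was also well above background on 1 of 2 arrays, with ratios of -1.70 and -1.53, and the FeO level was lower by at least 3.54-fold. Lgals4 (-2.11 and -3.60), Tff3 (-2.10 and -2.38), Krt20 (-1.16 and -1.74) and Guca2a (-1.38 and -1.83) made up the rest. Alpi had -0.34 and -0.29 by the probe used, and its other probe gave -2.41 and -2.58. The summed signal was 4610 and 5500 in FeD against 9590 and 9820 in FeA, and 3850 and 4740 in FeO against 9490 and 9700.

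Of 7 adipocyte genes, 7 passed in both comparisons. In FeD the median was -0.22, or -0.08 without array 1, from -0.40 for Cfd to 0.21 for Adipoq. In FeO a log2 ratio of 1 was reached by 6 of 7 (0.622% of all probes), with a median of 1.92, from 0.10 for Lep to 2.31 for Cfd, with 2.07 for Adipoq, 1.92 for Cidec, 2.15 for Car3, 1.55 for Pck1 and 1.47 for Fabp4. The summed signal was 38500 and 38100 in FeO against 11600 and 10500 in FeA.

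Among acinar genes, many of them saturated in a channel, the median ratio was 0.13 in FeD, or -0.01 without array 1, and -0.29 in FeO, or 0.09 with median centring. Cel, saturated in no channel, was lowest in both (-0.31 and -0.64), and Ctrb1 is given no ratio because it was saturated in 2 channels of each comparison. Among islet genes it was -0.25 in FeD, or -0.12 without array 2 (Iapp -0.55 to Gcg 0.21), and -0.54 in FeO, from Ppy (-1.19) and Iapp (-1.02) to Gcg (1.14). Of 6 duct genes, 6 passed, with medians of 0.09 in FeD (0.01 without array 1) and -0.11 in FeO (-0.27 without array 1 and -0.05 without array 2), from Krt19 (-0.33 and -0.98) to Sox9 (0.23) in FeD and Cftr (0.30) in FeO. The part of these tissues in the homing gene ratios was not tested. With 1 pool per diet, the diet and the makeup of the tissue sampled cannot be told apart.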

How the data were processed

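Intensity values were deposited as Agilent Feature Extraction 10.1.1.1 output, per the file headers, as uncorrected median spot and local background signals and as processed signals. The authors' tables also hold fold changes, p-values and q-values of their own comparisons, which were not used; probe names and symbols were read from them. Signals were corrected in R 4.3.3 with limma 3.58.1 by normexp (offset 50) and normalized by loess within each array, with control spots at weight 0. Outlier spots were left out. Spots of a probe were averaged, the sign was reversed on the swapped array, and both arrays, which are technical repeats, were averaged. Levels are channel values after Aquantile normalization. A probe was well above background where over 50% of its spots were, and passed the filter when that held on both arrays in at least 1 pool. Names came from RefSeq accessions for 18004 of 30367 probes, the authors' tables for 4945 and the array for 7418.

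The text names all 9 homing genes, 9 of the 10 genes nearest to Glycam1 and, of 15 gene lists, members at a log2 ratio of 1 in size and the lowest and highest, without a ratio or rank where dim or saturated channels leave none; other list genes named were chosen after their values were seen. Each list gene is given by its brightest probe. The homing genes and lists were chosen with earlier results of these data known. On simulated arrays the ratio steps returned the right sign for every changed probe, but a true log2 ratio of -3 came back as -2.51, so large decreases are understated. The size of increases depends on the offset as well. With an offset of 0, FeO genes past a log2 ratio of 2 in size went from 10 to 28 higher and from 22 to 39 lower. Python 3.11.15, pandas 2.3.3, numpy 2.4.6 and scipy 1.17.1 were used for counts. Alternatives were other background corrections, processed signals, median centring, Aquantile, each array left out, other filters, a size of 1, the brightest probe and the methods' t-test.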

Additional observations from a re-analysis of the deposited data

Results flagged for a closer look

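For 4 homing genes, both FeD arrays gave a ratio above FeA and both FeO arrays a ratio below it. Of all probes, 24.8% were higher on both arrays in FeD and 24.0% were lower on both in FeO. The share of probes with both was not counted, so nothing is read from the number of genes. The FeO ratio minus the FeD ratio was -3.90 for Glycam1, -1.84 for Ccl19, -1.72 for Ccl21 and -1.34 for Ltb, on the log2 scale. The difference was not tested, since each diet is 1 pool and both comparisons share the FeA pool.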

How the results depend on the processing

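Over 8 alternatives, of which Aquantile and the choice of the brightest probe leave these ratios as they are, 14 of the 16 homing gene ratios that passed the filter kept their sign. The exceptions were in FeO: Ccr7, which ran from -0.25 to 0.06, and Lta, from -0.03 to 0.12. Glycam1 in FeO moved to -3.13 with an offset of 0 and to -3.33 with the processed signals. With either array left out it ran from -2.85 to -2.65 in FeO and from 0.85 to 1.44 in FeD. Ccl19 ran from 0.80 to 0.89 in FeD and from -1.13 to -0.92 in FeO, Ccl21 from 0.51 to 0.95 and from -1.24 to -0.74, and Cxcl13 from 0.94 to 1.17 in FeO.

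The genes past the size criterion numbered 17 in FeD and 32 in FeO. They numbered 28 and 67 with an offset of 0, 66 and 146 with the processed signals, and 59 and 193 at a log2 ratio of 1. The methods' t-test on log2 intensities, which compares RNA pools by technical error, left 17 and 32 unadjusted and 0 and 0 after Benjamini-Hochberg adjustment. With either array left out the counts ran from 16 to 17 and from 29 to 41. Higher genes made up 31.2% in FeO, 53.7% without array 1, 41.8% with an offset of 0 or the processed signals, and 57% at a log2 ratio of 1, and in FeD 17.6%, 10.7% with an offset of 0, 10.6% with the processed signals and 33.9% at a log2 ratio of 1. The cause was not tested.

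In alternatives added after the data were seen, 21 of 28 list medians kept their sign. Those that did not were, in FeD, the lymphotoxin pathway (-0.03 to 0.29), other homeostatic chemokines (-0.01 to 0.29), lymphatic endothelium (-0.00 to 0.20), plasma cells (-0.04 to 0.72) and acinar cells (-0.01 to 0.27), and, in FeO, the lymphotoxin pathway (-0.08 to 0.03) and acinar cells (-0.40 to 0.09). The homing receptor median in FeO ran from -0.38, with the processed signals, to -0.08, with array 2 left out. That of dendritic cells ran from 0.05, with no background subtraction, to 0.26 in FeD, and from -0.33, with the processed signals, to -0.09 in FeO. The B cell median ran from 0.32 to 0.97 in FeD and from -0.53 to -0.22, the last with array 1 left out, in FeO, and the T cell median from 0.40 to 0.84 and from -1.28 to -0.33, with the T cell -1.28 from the processed signals. The intestinal median ran from -2.29 to -1.19 in FeD and from -2.65 to -1.61 in FeO, the lowest in each with the processed signals. Of the main list, 3 to 10 of the 10 genes nearest to Glycam1 were shared, with 3 under the processed signals. Signal over background limits Cxcr5 and the dim markers. No paired analysis was possible because each diet is 1 pool, beyond the pairing of channels within an array that every ratio already holds.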
